A study of Sus scrofa with 20 samples.

Results

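The 4 genes described here are PLCB1 (ENSSSCG00000007056), PLD1 (ENSSSCG00000011750), PLA2G4A (ENSSSCG00000023351) and CAPN1 (ENSSSCG00000012999), out of 21306 genes that the count files list for the boars of both breeds. They were taken because the study had named them as differing in testis between boars at either extreme of sperm DNA fragmentation. PLCB1 was named for both breeds, PLA2G4A and CAPN1 for Landrace, and PLD1 for Duroc. The differences that chose a gene are therefore given below as a description, without a test. All 4 genes were counted in all 20 boars, with 80 to 1967 reads per boar, and all 4 passed the filter on low counts in each breed.

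The boars were Norsvin Landrace and Norsvin Duroc boars kept for artificial insemination, picked by the study at the extremes of the sperm DNA fragmentation index (DFI). DFI is the percentage of red, denatured DNA signal in acridine orange flow cytometry of sperm. Testis RNA was sequenced with 1 library per boar, so that replicates are different animals. The Landrace low and high DFI groups held 5 and 4 boars, and the Duroc groups 5 and 6. By the sample labels, DFI was 0.62% to 1.7% in the low and 5.58% to 8.04% in the high Landrace group, and 1.05% to 1.13% in the low and 4.13% to 5.63% in the high Duroc group. Ages of single boars are not in the labels, and no boar is described as treated or mutant. The boars are numbered within their group by order in the record, and the numbers are only names.

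Total counts were 18086448 to 51782156 per library, and the 41 pairs of boars of one group all differed beyond sampling noise. Values are CPM, reads scaled to a common library total, after scaling with the trimmed mean of M values (TMM), and logFC is a log2 fold change with its standard error (SE). CPM is not per length, so levels are compared between boars and not between genes. Landrace low boars 1 and 2 and all 4 Landrace high boars carry closely spaced sample numbers, while Landrace low boars 3, 4 and 5 and all Duroc boars carry others. The sources used here do not say what these numbers mean. The tissue label held: the summed level of the spermatid marker genes, among them protamines and transition proteins, was 9154 to 16281 CPM over the 20 boars.

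The library of Duroc high boar 4 stood apart. The chi-square per degree of freedom between its counts and those of the other Duroc high boars was 46.09 to 59.21, against 16.31 to 23.98 in the 10 pairs among the others. It had the lowest spermatid sum, 9154 CPM, and the highest sums of Sertoli cell markers, 627 CPM (331 to 429 in the other boars), and fibroblast markers, 477 CPM (96.4 to 248 in the others). Values without it are given beside some of the results that include it. They are not given for the family and pathway lists or for the genes most like each of the 4, among others. The fits without this boar were partly chosen after the data were seen. Landrace high boar 2 also stood apart from its group. Its chi-square per degree of freedom was 70.6 to 102.8, against 18.24 to 39.18 in the pairs among the other Landrace high boars. The correlations over all boars and the list medians were not repeated with Landrace high boar 2 alone left out.

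Phospholipases cut membrane phospholipids into signals. Phospholipase C beta 1, the product of PLCB1, is switched on by G proteins of the Gq class and splits phosphatidylinositol bisphosphate into inositol trisphosphate, which releases calcium from stores, and diacylglycerol, which activates protein kinase C. Phospholipase D1, from PLD1, makes phosphatidic acid from phosphatidylcholine, and cytosolic phospholipase A2 alpha, from PLA2G4A, moves to membranes when calcium rises and frees arachidonic acid, the precursor of prostaglandins and leukotrienes. CAPN1 encodes the large subunit of calpain 1, a protease that needs calcium and pairs with the small subunit encoded by CAPNS1. In the testis, Leydig cells make androgens under luteinizing hormone, and arachidonic acid is known to take part in their steroid synthesis. Sperm and spermatids carry phospholipases and calpains of their own, such as phospholipase C zeta, the factor that starts calcium waves in the fertilized egg.

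Within each breed, the mean level of all 4 genes was higher in the high than in the low DFI group. Ratios of the group means were between 1.74 and 2.11 in Landrace and between 1.41 and 2.00 in Duroc. Ordered by group mean, both high groups stood above both low groups for each of the 4 genes. At the middle of that order, boars of the lower high group and the higher low group overlapped for PLD1, PLA2G4A and CAPN1, and for PLCB1 they were just apart (8.11 CPM in the lowest Duroc high and 8.08 CPM in the highest Landrace low boar). The neighbours at each end, the same DFI class in different breeds, are tested further on.

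**Figure D1:**
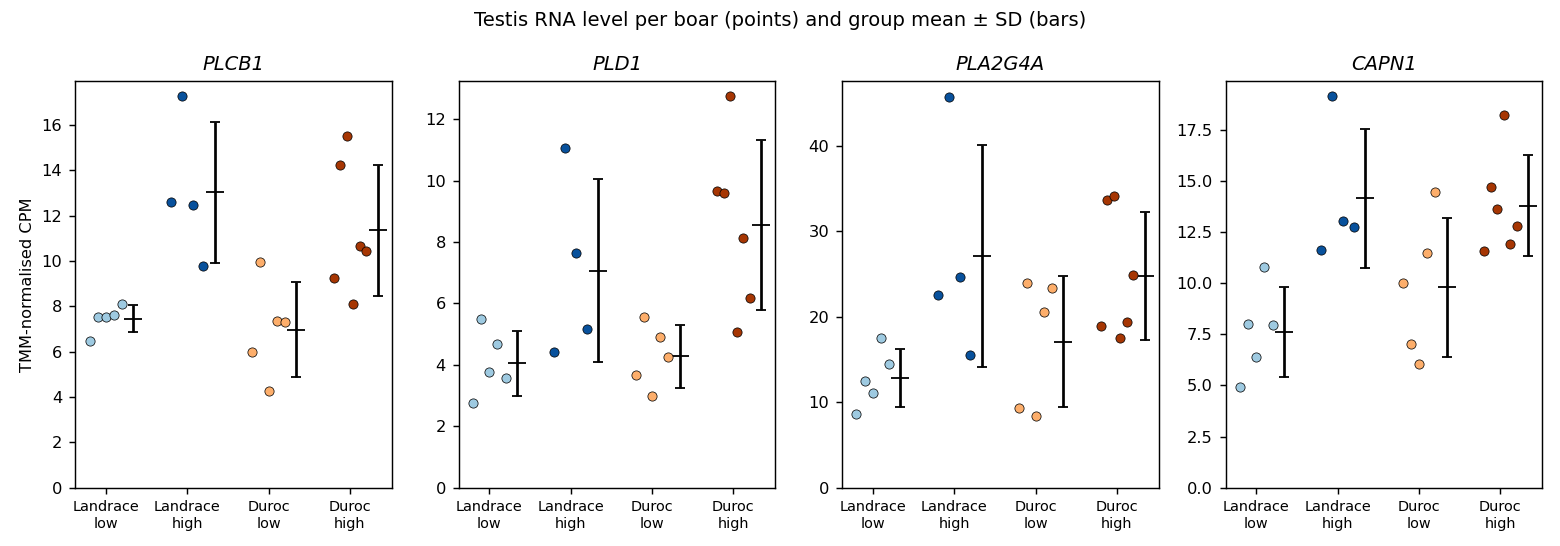
Testis RNA level of the 4 genes in TMM-normalised CPM (y axis, a separate scale for each gene) in each boar of the 4 groups (x axis). Points are boars and bars are group means ± SD, and for PLCB1 and CAPN1 all 4 Landrace high boars lie above all 5 Landrace low boars.

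PLCB1, the calcium-releasing enzyme of the set, was at 6.45, 7.54, 7.53, 7.63 and 8.08 CPM in Landrace low boars 1 to 5 and at 12.6, 17.3, 12.5 and 9.80 CPM in Landrace high boars 1 to 4. The Landrace groups did not overlap, and the low boars lay close together, with a mean of 7.45 ± 0.601 (SD, n = 5) against 13.03 ± 3.11 (SD, n = 4). In Duroc the level was 5.99, 9.95, 4.25, 7.35 and 7.32 CPM in low boars 1 to 5 and 9.26, 14.2, 15.5, 8.11, 10.6 and 10.4 CPM in high boars 1 to 6. These groups overlapped through low boar 2, which was above high boars 1 and 4, and their means were 6.97 ± 2.09 (SD, n = 5) and 11.4 ± 2.89 (SD, n = 6). The coefficient of variation of the low group was 8.07% in Landrace and 30.01% in Duroc. The logFC of high against low DFI was 0.81 (SE 0.15) in Landrace and 0.70 (SE 0.22) in Duroc, and both are descriptions since the study named PLCB1 on each.

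PLD1, the phosphatidic acid-forming enzyme, was at 2.77, 5.51, 3.75, 4.69 and 3.57 CPM in Landrace low boars 1 to 5 and at 4.42, 11.1, 7.63 and 5.17 CPM in Landrace high boars 1 to 4. High boars 2 and 3 were above all low boars, whereas high boars 1 and 4 lay within the range of the low group. Means were 4.06 ± 1.06 (SD, n = 5) and 7.07 ± 2.99 (SD, n = 4). The study named PLD1 for the other breed only, so the choice bears on this value too and its p is no independent test. The logFC of 0.81 (SE 0.27) did not pass edgeR's quasi-likelihood test with Benjamini-Hochberg adjustment over all genes (adjusted p = 0.164). All 4 high boars were above the mean of the low group. Without Landrace high boar 2, the logFC of PLD1 was 0.51, and the quasi-likelihood adjusted p ran from 0.0911 to 0.479 over all 9 fits that left out 1 boar.

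In Duroc, PLD1 was at 3.67, 5.57, 2.98, 4.92 and 4.24 CPM in low boars 1 to 5 and at 9.66, 9.58, 12.7, 5.06, 8.13 and 6.17 CPM in high boars 1 to 6. High boar 4 alone fell into the low range, so that 5 of the 6 high boars were above every low boar. The means were 4.28 ± 1.02 (SD, n = 5) and 8.56 ± 2.75 (SD, n = 6), and the logFC, on which the study named the gene, was 0.99 (SE 0.23). Without Duroc high boar 4 it was 1.11, and that of PLCB1 was 0.78.

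PLA2G4A, which encodes the enzyme that frees arachidonic acid, was at 8.67, 12.5, 11.05, 17.5 and 14.5 CPM in Landrace low boars 1 to 5 and at 22.6, 45.7, 24.7 and 15.5 CPM in Landrace high boars 1 to 4. High boar 2 was far above the others, high boar 4 was below low boar 4, and the other high boars were above all low boars. Means were 12.8 ± 3.35 (SD, n = 5) and 27.1 ± 12.9995 (SD, n = 4), with a logFC of 1.08 (SE 0.29), given as a description. It was 0.70 without Landrace high boar 2.

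In Duroc, PLA2G4A was at 9.35, 23.9, 8.36, 20.5 and 23.4 CPM in low boars 1 to 5 and at 18.9, 33.6, 34.2, 17.5, 19.4 and 24.8 CPM in high boars 1 to 6. The low group was split, with low boars 1 and 3 below every high boar and low boars 2, 4 and 5 within the high range. Means were 17.1 ± 7.64 (SD, n = 5) and 24.7 ± 7.52 (SD, n = 6). The study named PLA2G4A for Landrace only, so this value is not independent of the choice either. The logFC of 0.53 (SE 0.30) did not pass the quasi-likelihood test (adjusted p = 0.33), nor did the 0.61 without Duroc high boar 4 (adjusted p = 0.348).

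CAPN1, the protease gene, was at 4.91, 7.99, 6.37, 10.8 and 7.94 CPM in Landrace low boars 1 to 5 and at 11.6, 19.2, 13.03 and 12.8 CPM in Landrace high boars 1 to 4. All high boars were above all low boars, although high boar 1 and low boar 4 were close. Means were 7.60 ± 2.19 (SD, n = 5) and 14.1 ± 3.40 (SD, n = 4), and the logFC, a description, was 0.90 (SE 0.22).

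In Duroc, CAPN1 was at 9.9997, 6.999, 6.04, 11.5 and 14.4 CPM in low boars 1 to 5 and at 11.5, 14.7, 13.6, 18.2, 11.9 and 12.8 CPM in high boars 1 to 6. Low boar 5 was above 4 of the 6 high boars, and high boar 4, which was the lowest high boar for PLCB1, PLD1 and PLA2G4A, was the highest for CAPN1. Means were 9.79 ± 3.40 (SD, n = 5) and 13.8 ± 2.46 (SD, n = 6). As with PLA2G4A, the gene was named for Landrace only. The logFC of 0.49 (SE 0.21) did not pass the quasi-likelihood test (adjusted p = 0.204), and without Duroc high boar 4 it was 0.40 (adjusted p = 0.351). Over the 11 fits without 1 boar it ran from 0.36 to 0.67, with the adjusted p between 0.0823 and 0.378.

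Among the genes tested, groups that did not overlap with the high boars higher were found for 4.6% of 14519 genes in Landrace, where 2 of the 4 genes (PLCB1 and CAPN1) separated, and for 1.9% of 14666 genes in Duroc, where 0 of the 4 did. Since the study chose genes on these comparisons, nothing is read from the Landrace count. The quasi-likelihood test called 0% of the genes in Landrace and 0.0136% in Duroc, with 2417 (16.6%) and 3107 (21.2%) genes at an unadjusted p under 0.05. The likelihood ratio test, which the study used, called 767 (5.28%) and 376 (2.56%) genes on the same counts, and DESeq2 called 842 and 869. In Landrace the study reported fewer genes with the likelihood ratio test than were called here, and the reason was not tested.

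Landrace high boar 2 had the highest level of its group for all 4 genes, and Landrace low boar 1 the lowest of its group for all 4. The DFI in the labels was 6.41% for Landrace high boar 2, below the 8.04% of Landrace high boar 4, which had the lowest PLCB1 and PLA2G4A of that group. In the study's own list the 6.41% rests on a single ejaculate, and its highest Landrace boar varied widely between ejaculates. The order of DFI within the group is thus uncertain. Within the 6 Landrace boars of closely spaced numbers (2 low and 4 high), the logFC was 0.91 for PLCB1, 0.79 for PLD1 (quasi-likelihood adjusted p = 0.465), 1.37 for PLA2G4A and 1.14 for CAPN1. The remaining 3 Landrace boars are all of the low group, so no comparison of DFI groups can be made among them.

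The breeds were then compared at equal DFI class, which played no part in the choice of the genes. None of the 4 genes differed between Duroc and Landrace in the quasi-likelihood test, in a comparison that called 4.92% of 14636 genes at low DFI and 5.73% at high DFI. At low DFI, the logFC of Duroc against Landrace was -0.09 for PLCB1 (adjusted p = 0.868), 0.08 for PLD1 (adjusted p = 0.921), 0.41 for PLA2G4A (adjusted p = 0.542) and 0.36 for CAPN1 (adjusted p = 0.424), with SE between 0.20 and 0.32. At high DFI, it was -0.20 for PLCB1 (adjusted p = 0.601), 0.26 for PLD1 (adjusted p = 0.603), -0.13 for PLA2G4A (adjusted p = 0.844) and -0.04 for CAPN1 (adjusted p = 0.941). The breeds overlapped for all 4 genes in both classes, whereas 5.9% of all genes did not overlap at low DFI and 7.88% at high DFI. At high DFI, breed and series of sample numbers cannot be told apart. The high groups also differed in DFI itself, at 5.58% to 8.04% in Landrace and 4.13% to 5.63% in Duroc. Neither this contrast nor the interaction below separates that from breed. The red cell gene HBB, a sign of blood in the tissue, was lower in Duroc (logFC -2.62 at low and -2.90 at high DFI, quasi-likelihood adjusted p = 0.00657 and 0.00254), and its part in these values was not tested.

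The difference between the breeds in the size of the DFI effect was tested as an interaction. The Duroc minus Landrace difference of logFC was -0.11 (SE 0.29) for PLCB1, 0.19 (SE 0.38) for PLD1, -0.55 for PLA2G4A (SE 0.45) and -0.40 for CAPN1 (SE 0.32). None passed, the smallest adjusted p of any gene in this quasi-likelihood test was 0.319, and 0% of 14636 genes were called, with 364 at an unadjusted p under 0.05 and 2 called by the likelihood ratio test and 2 by DESeq2. That the study named PLD1, PLA2G4A and CAPN1 for 1 breed each favours a difference, and the interaction did not show one for these genes at this spread.

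**Figure D2:**
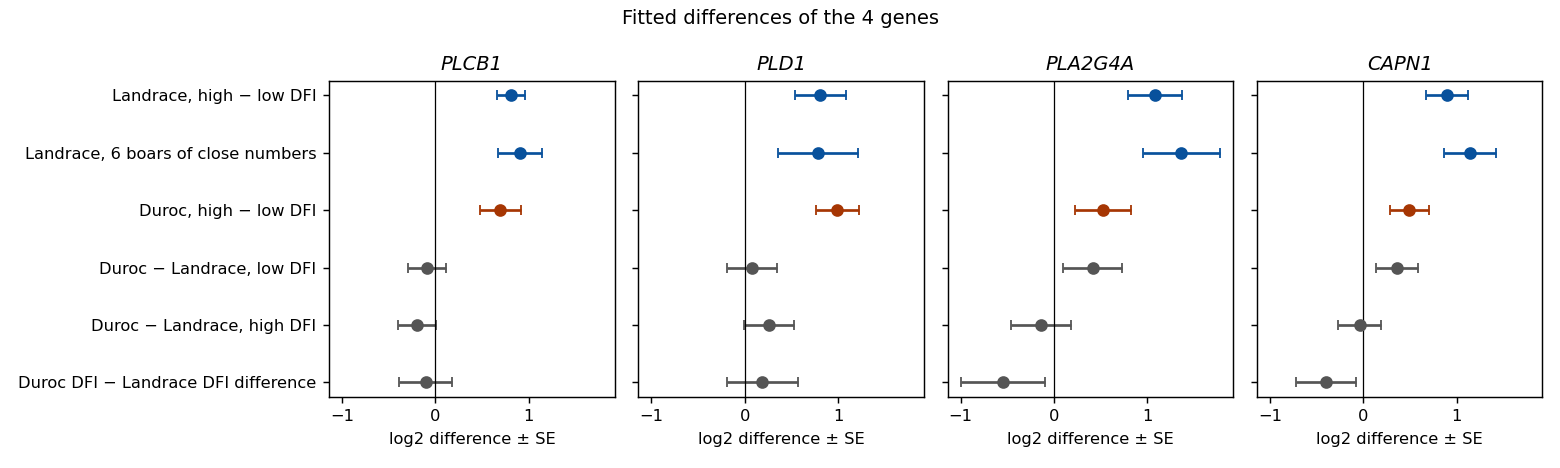
Fitted log2 differences (x axis, points, with bars for ± 1 SE) of the 4 genes for each comparison (y axis). In both breeds the DFI differences of the 4 genes are above 0, from 0.49 to 1.08 in the fits of whole breeds, while breed differences and interaction are within -0.55 to 0.41.

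How the 4 genes varied among boars of one group was examined on deviations of log2(CPM + 0.5) from the mean of each breed and DFI group. These take out the group differences that chose the genes, although genes and lists were chosen with earlier results of these boars known. In all, 42 relations were computed, 6 between the genes and 36 with cell type marker lists. P-values are from 100000 two-sided permutations of boars within groups and were Benjamini-Hochberg adjusted over the 42. A total of 8 of the relations passed.

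PLCB1 and PLA2G4A varied together most closely. Over 20 boars their Pearson r was 0.89 and Spearman rho 0.92 (permutation p = 1e-05, the smallest that these permutations can give, adjusted p = 0.00042 for each), and r was 0.85 without the 2 boars farthest from the median. The r was 0.93 within the 9 Landrace boars and 0.89 within the 11 Duroc boars. Of the 14635 other genes of the 20-boar fit, PLA2G4A was the one most like PLCB1. PLD1 followed both: with PLCB1, r was 0.76 and rho 0.71 (permutation p = 0.00037 and 0.00125, adjusted p = 0.00311 and 0.0125), and with PLA2G4A, r was 0.72 and rho 0.69 (permutation p = 0.00105 and 0.00188, adjusted p = 0.00735 and 0.0132). Without the 2 farthest boars these r were 0.67 and 0.63.

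CAPN1 had lower r with the phospholipases, a contrast that was not tested. Its r was 0.29 with PLCB1 (rho 0.39), 0.32 with PLD1 (rho 0.35) and 0.54 with PLA2G4A (rho 0.51), with permutation p = 0.29, 0.168 and 0.0401 for r and adjusted p = 0.478, 0.352 and 0.14. The adjusted permutation p of rho were 0.281, 0.3 and 0.193. The values differed between breeds: r was 0.65, 0.78 and 0.85 within Landrace and 0.14, -0.07 and 0.34 within Duroc, a difference that was not tested. Duroc high boar 4 was low for PLCB1 and high for CAPN1 within its group, and Duroc low boar 2 was the reverse. Without Duroc high boar 4, r of CAPN1 was 0.45 with PLCB1, 0.52 with PLD1 and 0.66 with PLA2G4A (adjusted permutation p = 0.217, 0.0838 and 0.056), while r of PLCB1 and PLA2G4A stayed at 0.89.

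**Figure D3:**
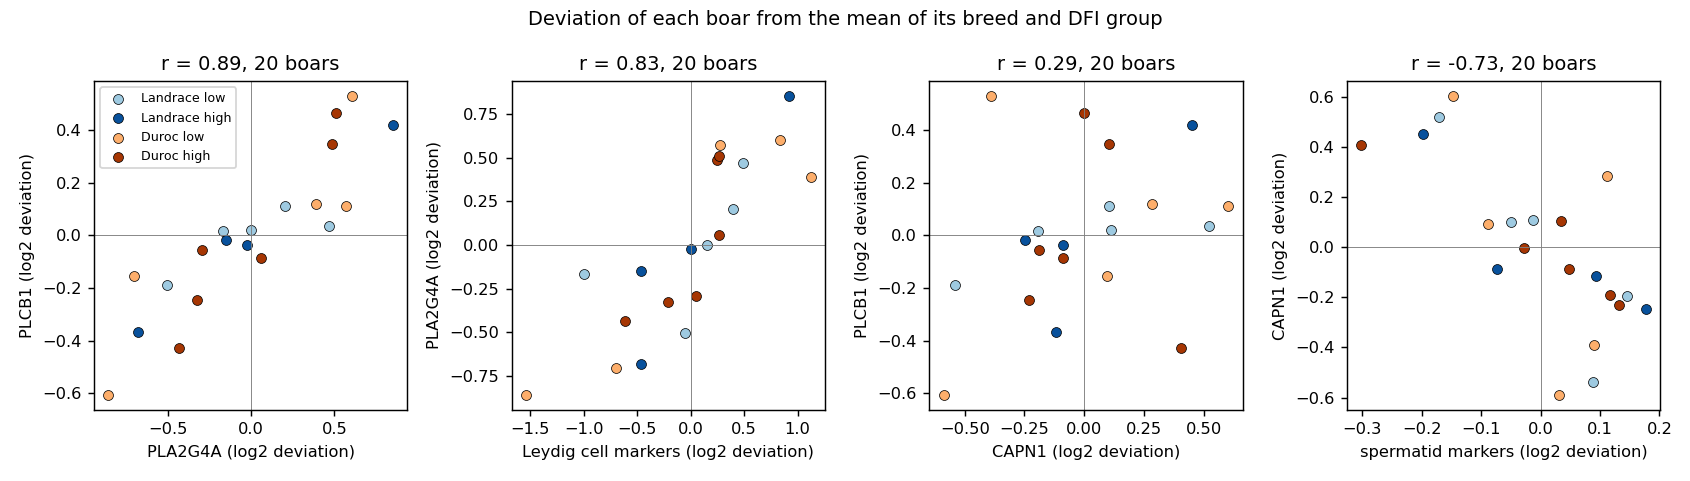
Deviations of each boar from the mean of its breed and DFI group in log2(CPM + 0.5), for 4 pairs of measures (x and y axes; a marker list is the mean over its genes), with points coloured by group. PLCB1 rises with PLA2G4A (r = 0.89) and PLA2G4A with the Leydig cell markers (r = 0.83), PLCB1 and CAPN1 scatter (r = 0.29), and CAPN1 falls with rising spermatid markers (r = -0.73).

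The study placed the 4 genes among those of reproductive processes that involve calcium influx, such as capacitation and the acrosome reaction. With which cell types of the testis the genes varied was examined with marker lists. Of the 6 Leydig cell markers, 4 were measured (CYP11A1 and CYP17A1, enzymes of steroid synthesis, the hormone gene INSL3 and the luteinizing hormone receptor LHCGR), and STAR and HSD3B1 were not analysed here. Across boars of one group, the Leydig cell list rose with PLCB1 (r = 0.75, rho = 0.77), PLD1 (r = 0.64, rho = 0.62) and PLA2G4A (r = 0.83, rho = 0.86). The adjusted permutation p of r were 0.00311, 0.00864 and 0.00311, and those of rho 0.00546, 0.0295 and 0.00357. Without the 2 boars farthest from the median, r was 0.74, 0.66 and 0.85, and without Duroc high boar 4 it was 0.73, 0.61 and 0.82. Within the 9 Landrace boars, r was 0.63, 0.65 and 0.77 (exact permutation test, adjusted p = 0.214, 0.214 and 0.137), so that none passed. Within the 11 Duroc boars it was 0.80, 0.64 and 0.87 (exact permutation test, adjusted p = 0.0265, 0.0678 and 0.0265). For CAPN1, r was 0.46 (rho 0.51, adjusted permutation p = 0.299 and 0.193) and 0.25 without the 2 farthest boars. As background, a higher r with the Leydig cell list than that of the gene itself was found for 2.11% of genes for PLCB1, 4.74% for PLD1, 0.984% for PLA2G4A and 11.1% for CAPN1.

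CAPN1 was related to other lists. With the 8 spermatid markers its r was -0.73 and its rho -0.69 (permutation p = 0.00029 and 0.00149, adjusted p = 0.00311 and 0.0125), r was -0.66 without the 2 farthest boars, and 0.964% of genes had a lower r. It was -0.85 within Landrace and -0.63 within Duroc. With 4 macrophage markers (CSF1R, CD68, CD14 and MARCO) its r was 0.68 and its rho 0.65 (permutation p = 0.00577 and 0.00956, adjusted p = 0.0303 and 0.0502), so that the relation passed by r and not by rho, and these markers summed to only 3.86 to 17.7 CPM. The spermatid list was at r = -0.03 with PLCB1, -0.12 with PLD1 and -0.25 with PLA2G4A over all 20 boars (adjusted permutation p = 0.938, 0.795 and 0.505). Within Landrace these were -0.63, -0.81 and -0.82, and within Duroc 0.26, 0.50 and 0.15. Without Duroc high boar 4 they were -0.32, -0.49 and -0.48 (adjusted permutation p = 0.382, 0.196 and 0.196), and those of CAPN1 were -0.71 with the spermatid and 0.74 with the macrophage list (adjusted permutation p = 0.022 and 0.0116).

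With endothelial markers, r was 0.50 for PLCB1 and 0.53 for PLA2G4A (adjusted permutation p = 0.206 for each) over 20 boars, and 0.89 and 0.94 within Landrace against 0.37 and 0.33 within Duroc, so that within Landrace they were above the r with the Leydig cell list. For CAPN1, r was 0.59 with endothelial markers, where 2.75% of genes had a higher r, and 0.56 with smooth muscle markers, where 2.21% had (adjusted permutation p = 0.123 and 0.071). Without Duroc high boar 4, the r of CAPN1 with endothelial markers was 0.69 (adjusted permutation p = 0.0495, and 0.101 for rho). The other 23 relations, with Sertoli cell, smooth muscle, fibroblast, spermatogonia and spermatocyte lists and the remaining pairs, had r from -0.40 to 0.49 and adjusted permutation p from 0.123 to 0.966. Some of these depended on Duroc high boar 4. Without it, r with the fibroblast list was 0.61 for PLCB1, 0.33 for PLD1, 0.62 for PLA2G4A and 0.37 for CAPN1. The adjusted permutation p were 0.0838, 0.344, 0.0838 and 0.368. PLD1 with the Sertoli cell list went from -0.27 to 0.19. The levels of a gene in each cell type cannot be read from whole tissue.

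**Figure D4:**
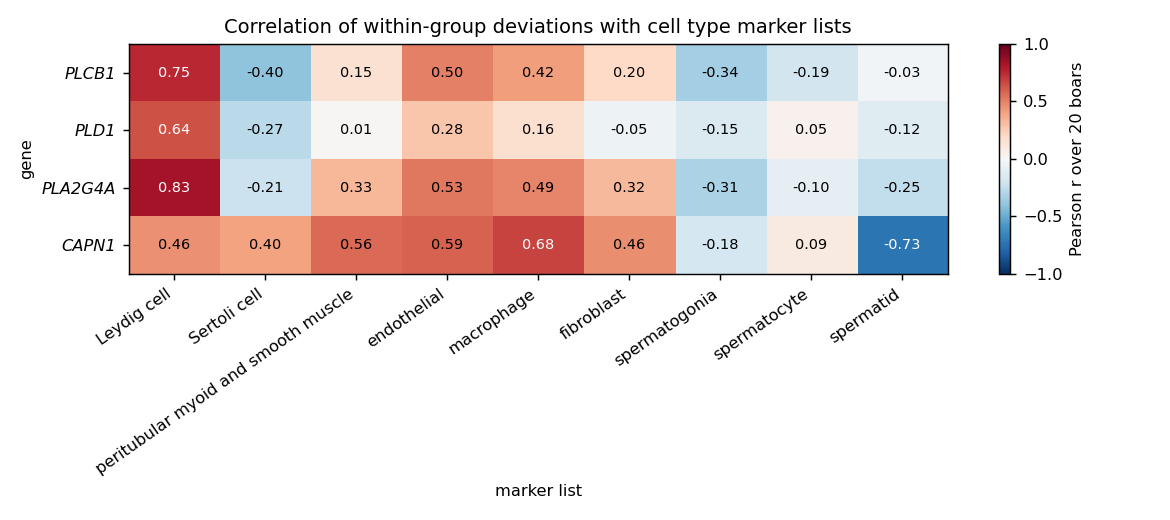
Pearson r over 20 boars (colour and number) between the within-group deviations of each of the 4 genes (y axis) and those of 9 cell type marker lists (x axis). The phospholipases have their highest r with the Leydig cell list (0.75, 0.64 and 0.83), and CAPN1 has 0.68 with the macrophage list and -0.73 with the spermatid list.

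The levels of the same marker lists in the DFI groups are given beside those of the 4 genes. All 4 measured Leydig cell markers had a logFC above 0 in both breeds, with a median of 1.27 in Landrace and 0.88 in Duroc, and 0.997 in Duroc without high boar 4. In the quasi-likelihood test 0 of the 4 passed the adjusted threshold in either breed. At an unadjusted p under 0.05 were 4 of 4 in Landrace and 2 of 4 in Duroc, beside 16.6% and 21.2% of all genes. The likelihood ratio test called 4 of 4 in Landrace and 2 of 4 in Duroc, beside 5.28% and 2.56% of all genes. As the study had named CYP11A1 for both breeds with that test on these boars, the counts only describe the 4 markers. Their summed level was 1239 to 4108 CPM in Landrace low, 4495 to 11964 in Landrace high, 786 to 5945 in Duroc low and 3317 to 7011 in Duroc high boars. Landrace high boar 2, the highest of its group for all 4 genes, had the 11964 CPM, and Duroc low boar 3, the lowest of its group for all 4 genes, had the 786 CPM. The match was not complete, as Landrace low boar 1, lowest of its group for all 4 genes, had 2714 CPM, and Landrace low boar 3 had the 1239 CPM. In whole tissue, fewer cells of a type and less RNA per cell cannot be told apart.

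The 8 spermatid markers had a logFC below 0 in both breeds, with medians of -0.18 and -0.29, and summed to 10277 to 14013 CPM in Landrace high against 11719 to 15585 in Landrace low boars and to 9154 to 12911 in Duroc high against 12411 to 16281 in Duroc low boars. Markers of smooth muscle (5 of 5), endothelium (4 of 4) and fibroblasts (5 of 5) were above 0 in both breeds, with medians of 0.74, 0.76 and 0.43 in Landrace and 0.37, 0.49 and 0.49 in Duroc, and macrophage markers in 3 of 4, with medians of 0.67 and 0.24. Sertoli cell markers were above 0 in 4 of 8 in Landrace and 7 of 8 in Duroc, spermatogonia markers in 1 and 2 of 4, and spermatocyte markers in 1 and 0 of 5. Without Duroc high boar 4, the Sertoli cell markers were above 0 in 4 of 8 in Duroc too, and the Duroc medians were -0.23 for spermatids, 0.32 for smooth muscle, 0.55 for endothelium, 0.45 for fibroblasts and 0.26 for macrophages. None of these markers passed the adjusted quasi-likelihood threshold in either DFI comparison. By the likelihood ratio test, 3 smooth muscle, 2 endothelial, 2 macrophage and 2 fibroblast markers were called higher in Landrace, and 1 macrophage and 2 fibroblast markers higher and 1 spermatid marker lower in Duroc. Of all genes, that test called 5.28% in Landrace and 2.56% in Duroc. With it the study had already named CSF1R and COL3A1 for both breeds, ACTA2 and COL1A2 for Landrace and CAPZA3 for Duroc. These counts are therefore a description. The median logFC over all genes was -0.01 in Landrace and 0.01 in Duroc. The part of cell makeup in the differences of the 4 genes was not tested.

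The families of the 4 genes were followed as lists. A logFC above 0 was found for 47.3% of all genes in Landrace and 51.8% in Duroc. Of 15 phospholipase C genes, all tested, 7 had a logFC above 0 in Landrace and 8 in Duroc, and without PLCB1 the median was -0.05 and -0.04. The other beta isoforms, with the same Gq input, were at 0.00 (PLCB3), 0.05 (PLCB4) and -0.09 (PLCB2) in Landrace and at 0.23, 0.02 and 0.32 in Duroc. The phospholipase C gene with the highest CPM was the sperm form PLCZ1, at 358 on average, with a logFC of -0.20 in Landrace and -0.43 in Duroc.

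Of 6 phospholipase D genes, 4 were tested, and PLD6 was not analysed here. PLD2, which makes phosphatidic acid like PLD1, was at a logFC of 0.77 (SE 0.23) in Landrace and 0.39 (SE 0.27) in Duroc, PLD5 at -0.46 and -0.26, and PLD3, the family gene with the highest CPM (62.7), at 0.16 and 0.06. Of 20 phospholipase A2 genes, 10 were tested, 5 above 0 in each breed, and without PLA2G4A the median was -0.08 and -0.01. The close relatives of PLA2G4A in the cytosolic group were near 0, with PLA2G4B at 0.14 and 0.07, PLA2G4D at -0.11 and -0.16 and PLA2G4F at 0.18 and 0.12. PLA2G6, a calcium-independent form, had the highest CPM at 121.7, with logFC of -0.08 and -0.01.

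Of 17 calpain genes, 10 were tested, with 5 above 0 in Landrace and 7 in Duroc. CAPN2, the large subunit of the other widespread calpain, was at 0.57 (SE 0.23) and 0.49 (SE 0.18), and CAPN5 at 0.89 (SE 0.23) and 0.56 (SE 0.34). CAPNS1, the partner subunit of CAPN1 and CAPN2 and the list's gene with the highest CPM (447), was at -0.04 and 0.03. CAPN3 and CAPN11, at 301 and 274 CPM, were at -0.20 and -0.13 in Landrace and -0.17 and -0.11 in Duroc. The inhibitor gene CAST was not analysed here. None of the family genes passed the adjusted quasi-likelihood threshold in either DFI comparison. The isoforms named beside the gene with the highest CPM were picked after their values were seen.

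**Figure D5:**
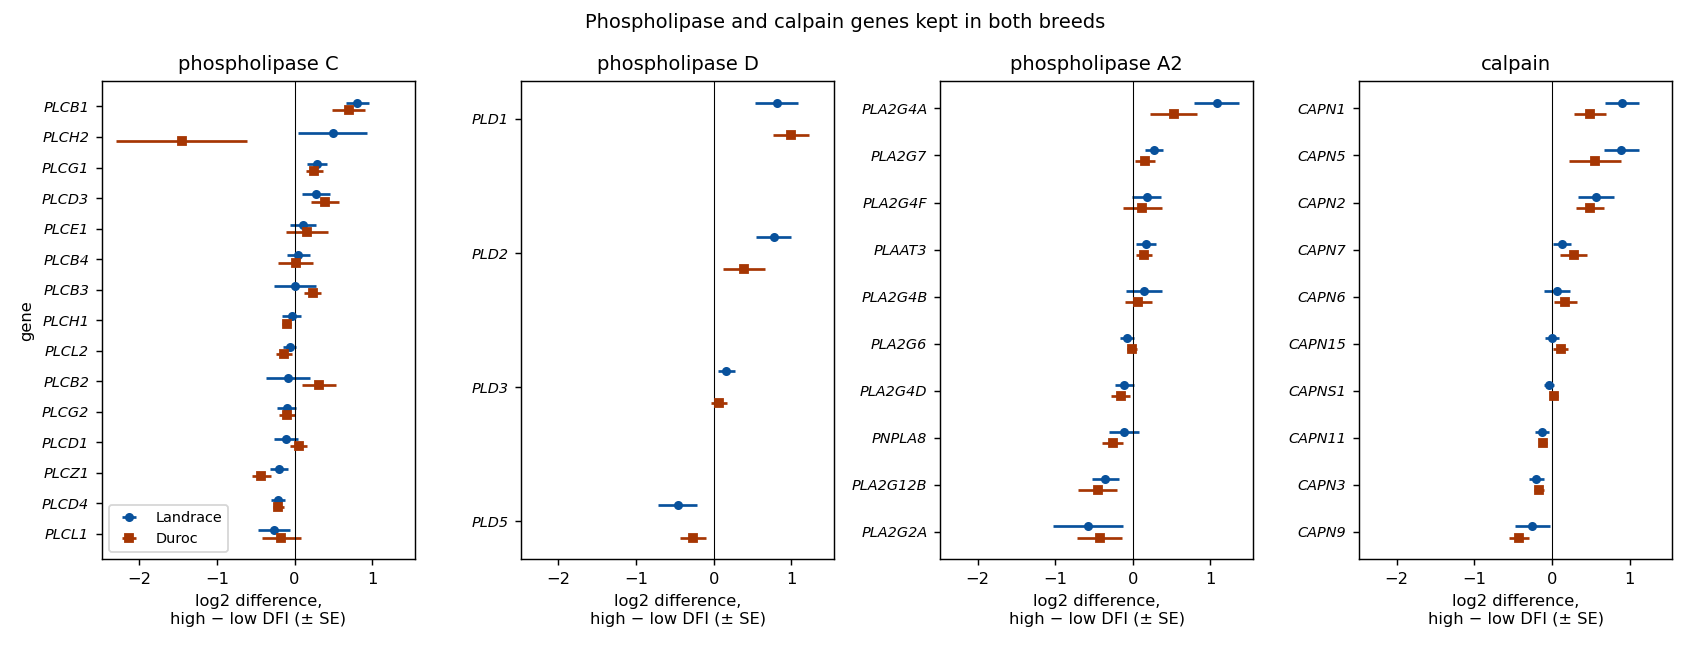
Log2 difference of high against low DFI (x axis, ± SE) in Landrace (circles) and Duroc (squares) for the phospholipase C, D and A2 and calpain genes (y axis) kept in both breeds, ordered by the Landrace value. The place of PLCB1, PLA2G4A and CAPN1 in Landrace is a description, as the study named them on that comparison, and PLD2 at 0.77 and CAPN5 at 0.89 lie next to PLD1 and CAPN1. In Duroc, CAPN5 at 0.56 is above CAPN1 at 0.49.

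Upstream of PLCB1, 7 of 14 genes of Gq input were tested, with 5 above 0 in Landrace and 6 in Duroc and medians of 0.48 and 0.43. The list mixes receptors and G proteins with the regulator gene RGS4, at 0.48 (SE 0.46) and 0.53 (SE 0.38), which is the Landrace median. Its counts and medians therefore do not measure the strength of Gq input. The receptors EDNRA (endothelin) and AGTR1 (angiotensin II), singled out after their values were seen, were at 1.12 (SE 0.24) and 1.08 (SE 0.26) in Landrace and at 0.77 (SE 0.21) and 0.43 (SE 0.23) in Duroc. LHCGR, which is also in the Leydig cell list, was at 1.21 and 1.23. The G protein gene GNA11 was at 0.03 and 0.04, and GNAQ was not analysed here. Downstream, 18 of 23 genes of inositol trisphosphate and diacylglycerol output were tested, and medians were -0.01 and -0.04. Channels and kinases that respond to these signals stand in it beside kinases that use up diacylglycerol, so its median does not measure output. The smallest unadjusted p of that list was for the calcium release channel gene ITPR1 in Landrace, at 0.67 (SE 0.15) against 0.31 (SE 0.17) in Duroc, and for the diacylglycerol kinase gene DGKH in Duroc, at -0.59 (SE 0.11) against -0.19 (SE 0.17) in Landrace.

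Of 8 activators of phospholipase D, 6 were tested, with medians of 0.06 and 0.02, among them the small G protein gene ARF6 at 0.40 and 0.41. Among 16 genes that convert arachidonic acid or act beside PLA2G4A, 9 were tested in Landrace and 8 in Duroc, with medians of -0.02 and 0.19. The cyclooxygenase genes were low, with PTGS1 at 1.12 CPM and PTGS2 at 0.405 CPM on average, and PTGS2 was not tested. None of the genes of these 4 lists passed the adjusted quasi-likelihood threshold in either DFI comparison. Their unadjusted counts in Landrace were 3 of 7, 5 of 18, 1 of 6 and 1 of 9 genes, and in Duroc 2 of 7, 5 of 18, 2 of 6 and 0 of 8, beside 16.6% and 21.2% of all genes. The likelihood ratio test called 3 and 2 genes of Gq input higher in Landrace and Duroc, 1 gene of the output list higher in Landrace and 2 of it lower in Duroc, and no gene of the other 2 lists. Of all genes, it called 5.28% in Landrace and 2.56% in Duroc. EDNRA for both breeds and DGKH for Duroc had been named by the study with that test on these boars, so these counts are a description.

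Between breeds, a few genes of these lists did pass where the 4 genes did not. PLCD1, another phospholipase C gene, was higher in Duroc at high DFI (logFC 0.63, quasi-likelihood adjusted p = 0.0123), as was CAPN9 at low (logFC 0.77) and at high DFI (logFC 0.60). DGKD, a kinase that uses up diacylglycerol, was higher in Duroc by a logFC of 0.59 at each DFI class, and the channel gene ITPR2 by 0.40 and the prostacyclin synthase gene PTGIS by 0.66 at low DFI. At high DFI, the G protein gene GNA14 was higher in Duroc (logFC 0.45), and ALOX15, a lipoxygenase gene, was lower (logFC -3.17). ALOX15 was near the floor in Duroc high boars, at a mean of 0.634 CPM, and spread from 0.597 to 15.0 CPM in Landrace high boars. In all, 4 of the 80 tested genes of the 8 family and pathway lists passed at low DFI and 5 at high DFI, shares of 5% and 6.25% beside the 4.92% and 5.73% of all genes.

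The genes that varied most like each of the 4 among boars of one group were named by Pearson r of the same deviations over 20 boars, out of 14635 genes, as a description. For PLCB1 these were PLA2G4A, ACSL1 (a fatty acid CoA ligase, r = 0.87) and F11R (a junction protein, r = 0.87). For PLA2G4A they were MAN2B1 (lysosomal alpha-mannosidase, r = 0.94), DLG1 (a scaffold protein, r = 0.90) and SUMF2 (r = 0.89), with PLCB1 in place 4. For PLD1 they were VWA8 (r = 0.84), a gene without symbol (ENSSSCG00000022732, r = 0.84) and TGFBR3 (a co-receptor of transforming growth factor beta, r = 0.84). For CAPN1 they were ENSSSCG00000007227 (r = 0.88), TRABD (r = 0.87) and HDAC10 (a deacetylase, r = 0.86). CAPN1 was in place 2840 of the genes most like PLCB1, 2525 of those most like PLD1 and 1182 of those most like PLA2G4A.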

How the data were processed

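Testis RNA of 20 boars was sequenced from non-stranded TruSeq libraries with 50-base single reads. Per the labels and methods, the authors used FastQC 0.10.1, TopHat2 2.0.12 (genome build 10.2), SAMtools 1.1 and HTSeq. The deposited values are raw counts of reads per Ensembl gene, not normalized, and the lowest value in the files is 1, for a reason not given in the sources used here. Reads shared with antisense or overlapping genes cannot be told apart. Total counts bear on the precision of the values of a single library, and the tests of group differences weigh them against the spread between boars.

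Groups came from the labels, whose DFI differs slightly from the study's own list for some Landrace boars. Genes above 1 CPM in at least 5 of 9 Landrace, 6 of 11 Duroc or 10 of 20 boars were kept (14519, 14666 and 14636). Counts were TMM-normalised and tested with the quasi-likelihood test of edgeR 4.0.16 in R 4.3.3, with Benjamini-Hochberg adjustment over all kept genes and a threshold of 0.05. Each breed was fitted alone, and breed contrasts and interaction in 1 fit of 20 boars. The SE of a logFC is its size divided by the root of the F statistic, so it restates that test. Correlations used Python 3.11.15 and scipy 1.17.1 on log2(CPM + 0.5). A marker list was the mean of its kept genes. The scripts were tested on simulated data.

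Alternatives were the study's likelihood ratio test, DESeq2 1.42.0, another scaling (RLE), no filter, each boar left out, and the series of sample numbers. A likelihood ratio test within the 6 closely numbered Landrace boars was added after seeing the data, as were the correlations and list medians without Duroc high boar 4. The 4 genes and the 18 lists were chosen with earlier results of these data known. Named were the 4 genes, for each list its counts and up to 3 genes past the threshold, the family gene with the highest CPM, and the 3 genes most like each of the 4. Other genes named from the lists were picked after their values were seen. Symbols matched 11655 of 21306 IDs. No sequence or position is printed, since no genome of this build was used here.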

Additional observations from a re-analysis of the deposited data

How the results depend on the processing

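Over 340 alternative values of the 20 differences of the 4 genes (5 comparisons each), 331 kept their direction, and 9 turned it, all of them breed or interaction values that had not passed. A threshold applied only to the 262 values that were tested, none of which passed, and not to the 78 values of the comparisons that chose the genes. The 9 values that turned were as follows. At low DFI they were PLCB1 (0.0399 without Duroc low boar 3) and PLD1 (-0.0325 without Landrace low boar 1, -0.0391 without Duroc low boar 2). At high DFI they were PLA2G4A (0.24) and CAPN1 (0.14) without Landrace high boar 2. CAPN1 also turned there without Duroc high boar 1 (0.0076) or 5 (0.0073). For the interaction they were of PLCB1 (0.0635 without Landrace high boar 2 and 0.0589 without Duroc low boar 2). Leaving out 1 boar, the Landrace logFC ran from 0.64 to 0.92 for PLCB1, 0.51 to 0.97 for PLD1, 0.70 to 1.27 for PLA2G4A and 0.72 to 1.06 for CAPN1, each lowest without Landrace high boar 2, and the Duroc logFC from 0.56 to 0.86, 0.85 to 1.11, 0.35 to 0.68 and 0.36 to 0.67. Between breeds the ranges were -0.26 to 0.04, -0.04 to 0.21, 0.26 to 0.59 and 0.19 to 0.52 at low DFI, and -0.32 to -0.03, 0.12 to 0.56, -0.33 to 0.24 and -0.13 to 0.14 at high DFI, and for the interaction -0.24 to 0.06, 0.03 to 0.49, -0.74 to -0.17 and -0.56 to -0.21. With the number series as a covariate, the Landrace logFC were 0.91, 0.79, 1.37 and 1.14. These equal the values within the closely numbered Landrace boars, because the other Landrace boars are all of the low group. The covariate fit is therefore no separate check, although its values are counted among the 340.

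Counts of all genes called depended on the test. The likelihood ratio test called 767 (Landrace), 376 (Duroc) and 2 (interaction), and DESeq2 called 842, 869 and 2, with 1095 and 1377 between breeds at low and high DFI. Without a filter, 1 gene was called in Landrace, and 292 by the likelihood ratio test within the 6 closely numbered Landrace boars, an alternative chosen after seeing the data. Without the 2 closely numbered Landrace low boars, 358 genes were called between breeds at low DFI. Leaving out 1 boar gave 0 to 2 (Landrace), 0 to 17 (Duroc, 17 without low boar 5), 455 to 749 and 563 to 807 (breeds at low and high DFI) and 0 to 1 (interaction). The cause was not tested.

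Within single breeds, relations past the adjusted threshold over 20 boars no longer passed, in fewer boars, for PLCB1 with PLD1 (r = 0.71) and the Leydig cell list (0.63) in Landrace, PLD1 with PLA2G4A (0.78 in Landrace, 0.69 in Duroc) and the Leydig cell list (0.65 and 0.64), PLA2G4A with that list in Landrace (0.77), and CAPN1 with macrophage (0.44 and 0.81) and, in Duroc, spermatid markers (-0.63). In Landrace alone, PLA2G4A with CAPN1 (0.85) and the endothelial list with PLCB1 (0.89) and PLA2G4A (0.94) passed. Without TMM factors, 10 of the 42 relations passed, against 8 with them. CAPN1 with the smooth muscle list (0.61) was among those gained, and the rest of the gain is not named here. Without Duroc high boar 4, CAPN1 with the endothelial list passed (0.69). In Duroc the sign turned for PLD1 with CAPN1 (-0.0726) and for the spermatid list with PLCB1 (0.26), PLD1 (0.50) and PLA2G4A (0.15). No paired analysis was possible because the labels number no replicates and the boars are different animals.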
